A study of Mus musculus with 14 samples.

Results

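The nuclear genes of the mitochondrial respiratory chain were examined for promoter occupancy by CRTC2 and NF-κB p65 and for promoter acetylation of histone H3 at lysine 27 (H3AcK27). They were taken by symbol from the protein-coding genes of the mouse annotation (GRCm38), as those that start with Nduf, Uqcr, Atp5 or Cox followed by a digit, together with Sdha, Sdhb, Sdhc and Sdhd. This gave 102 of 21829 genes: 38 complex I subunits, 8 complex I assembly factors, 4 subunits of complex II, 8 of complex III and 18 of complex IV, 9 complex IV assembly factors and 17 genes named for ATP synthase. These groups follow the symbols. The products of Ndufa4, Cox7a2l and Atp5s are not constitutive subunits of the complex they are counted under.

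The respiratory chain passes electrons from NADH and succinate to oxygen through complexes I to IV, and the proton gradient that it builds drives ATP synthase. Most of its subunits are encoded in the nucleus, and their promoters are known for sites of the factors NRF1, GABPA and YY1 and for ERRα, a partner of the coactivator PGC-1α. CRTC2 is a coactivator of CREB, the factor that binds the cAMP response element (CRE). A rise in cAMP blocks the kinases that hold CRTC2 in the cytoplasm. NF-κB p65 enters the nucleus after TNFα.

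The cells were 3T3-L1, a mouse preadipocyte line, after 4 days of differentiation to adipocytes. They were left untreated (control) or treated for 1 h with FSK (forskolin, 10 µM), which activates adenylyl cyclase, with TNFα (10 ng/ml), or with FSK and TNFα together (FSK/TNFα). Each combination of 3 targets and 4 treatments was 1 ChIP-seq library with 1 deposited peak list. Treatments therefore cannot be compared against a spread between replicates, and no p-value is given. Control and TNFα peaks were called against an input from untreated cells, and FSK and FSK/TNFα peaks against an input from FSK-treated cells.

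Libraries held from 9832884 tags (H3AcK27 with FSK) to 31807394 tags (CRTC2 with FSK/TNFα). For CRTC2 there were 5188 peaks in control cells, 11749 after FSK, 19527 after TNFα and 14171 after FSK/TNFα. These peaks held 0.622%, 1.94%, 3.1% and 2.05% of the tags of their libraries. The p65 lists held from 214 to 4221 peaks, and the H3AcK27 lists from 38684 to 52321 regions. Of 8 adipocyte markers, Pparg, Fabp4, Lipe and Lpl had an acetylated promoter in each H3AcK27 list, and Cebpa, Adipoq, Plin1 and Cd36 had none. The H3AcK27 region at Lipe, the hormone-sensitive lipase, held 592.7 normalized tags in control cells, 95.6 after FSK, 408.7 after TNFα and 70.3 after FSK/TNFα. The regions at Fabp4, Lpl and Pparg also held fewer tags in each treated list than in control cells, with the lowest values in the 2 lists with FSK. Among preadipocyte markers, the region at Col1a1 held 805, 311.2, 713.7 and 246.4 tags in the same order and that at Pdgfra 1265.5, 829.9, 1316.2 and 1080.1, so these too held fewer with FSK. These values are tags of the whole region, not per kb. Preadipocyte markers were acetylated at 4, 3, 4 and 4 of 4 promoters in the same order of lists, macrophage markers at 1, 1, 2 and 2 of 4, and the hepatocyte and muscle markers at none. Any part of the cell mixture in the results below was not tested.

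CRTC2 was called at the promoter, which here spans 1000 bp before a start site and 100 bp after it, of 31 of 102 respiratory chain genes in control cells. This is 30.4% (95% Wilson interval 22.3 to 39.9), against 11.8% of all protein-coding genes. With FSK the count was 53 genes, or 52% (42.4 to 61.4), against 27.4%. With TNFα it was 83 genes, or 81.4% (72.7 to 87.7), against 39.9%, and with FSK/TNFα 63 genes, or 61.8% (52.1 to 70.6), against 29.1%. The intervals cover counting over genes only, not the spread between libraries.

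The distance from all genes was smaller among acetylated promoters. H3AcK27 marked 95 respiratory chain promoters in control cells and 11281 promoters in all. Among these, CRTC2 was called in control cells at 32.6% of respiratory chain genes and 22.7% of all genes. With FSK the shares were 55.8% and 52.7%, with TNFα 87.4% and 76.3%, and with FSK/TNFα 66.3% and 55.7%. With FSK the share of all genes lay inside the 95% Wilson interval of the respiratory chain share, 45.8 to 65.4%. Cytosolic ribosomal protein genes, a comparison set of 77 genes, stood higher in each list, at 46.8%, 89.6%, 96.1% and 80.5%. Mitochondrial ribosomal protein genes, 78 in number, stood at 23.1%, 51.3%, 85.9% and 51.3%.

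**Figure D1:**
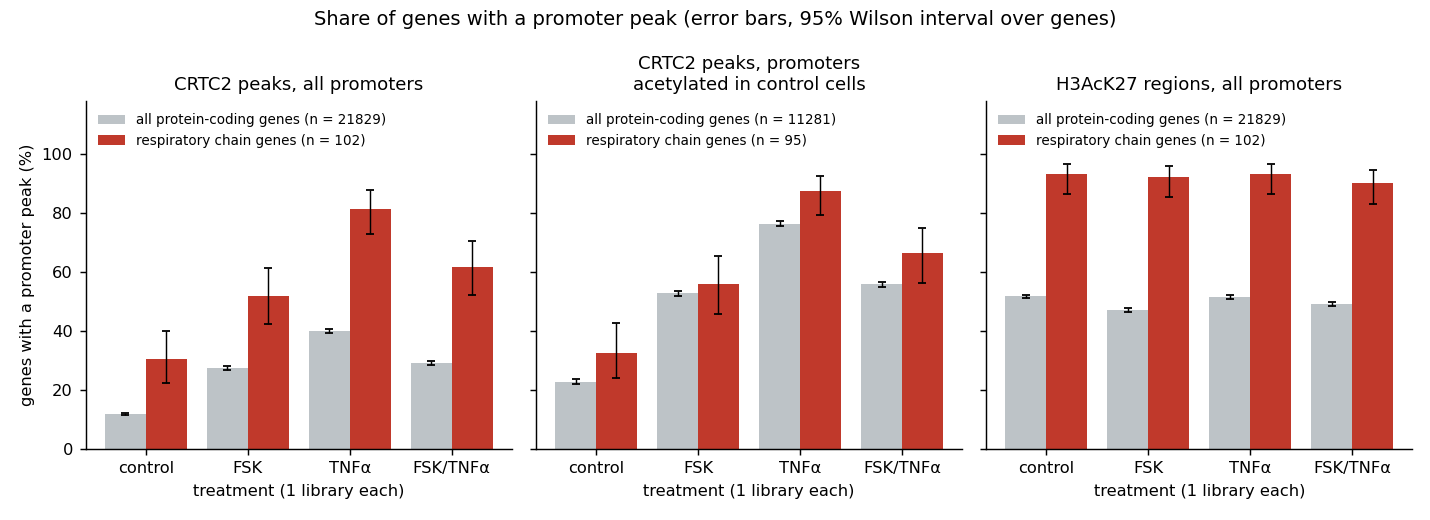
Bars give the percent of genes with a promoter peak in each list for respiratory chain genes (red) and all protein-coding genes (grey), with 95% Wilson intervals over genes and 1 library per bar. The left and right panels use all promoters, where the red bars stand from 1.8 to 2.57 times as high as the grey bars, and the middle panel uses promoters acetylated in control cells, where CRTC2 ratios run from 1.06 to 1.44.

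By number of CRTC2 lists, 13 respiratory chain genes (12.7%) had a promoter peak in none, against 56.9% of all genes, and 16 (15.7%) had one in all 4, against 8.32%. Among promoters acetylated in control cells the shares with none were 6.32% and 18%, and those with all 4 were close, at 16.8% and 16.1%. The most frequent combination, 24 genes, was a peak in the 3 treated lists and not in control cells. A further 13 genes had peaks with TNFα and FSK/TNFα, and 10 with TNFα alone. Only Uqcrc1 and Ndufa1 had a peak with FSK alone, and only Ndufaf4 and Ndufab1 with FSK/TNFα alone. No gene had one in control cells alone.

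**Figure D2:**
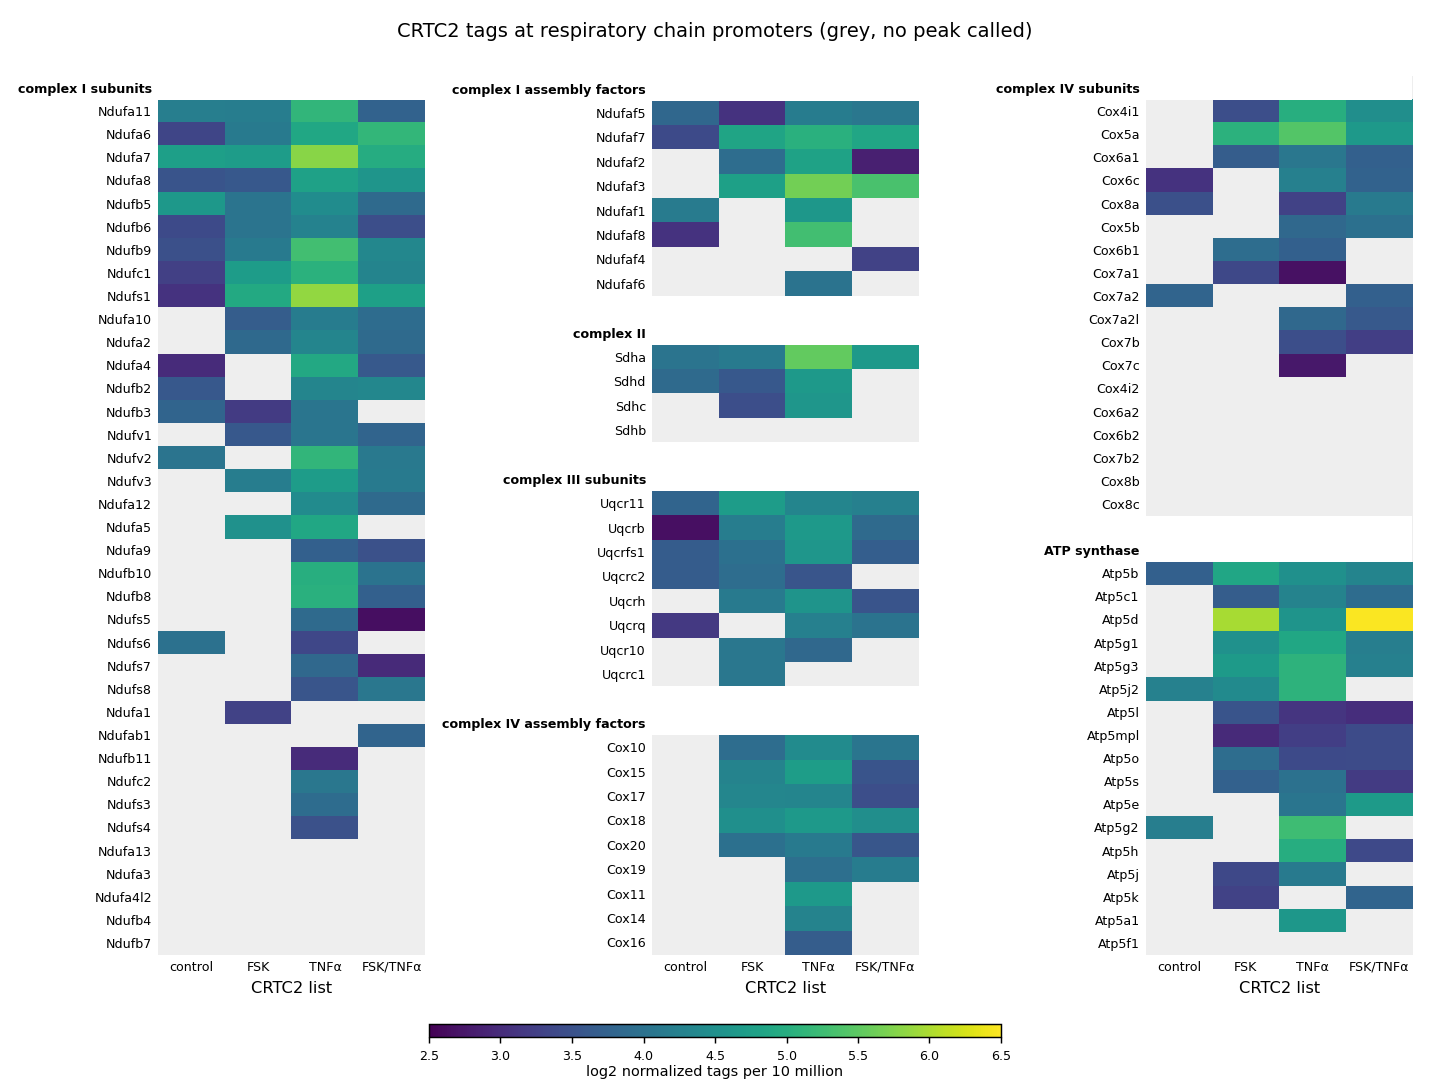
Rows are respiratory chain genes by complex and columns the 4 CRTC2 lists. Color gives log2 of the normalized tags of the promoter peak with the most tags, scaled to 10000000 tags per library, and grey marks promoters without a called peak. The brightest cell is Atp5d with FSK/TNFα (88.7 tags), and the complex IV assembly factors are all grey in control cells.

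Complex I, the NADH dehydrogenase, is the largest group. Of its 38 subunit genes, 14 had a promoter peak in control cells, 17 after FSK, 31 after TNFα and 25 after FSK/TNFα. These are 36.8%, 44.7%, 81.6% and 65.8%. Among all genes acetylated in control cells the shares were 22.7%, 52.7%, 76.3% and 55.7%. The counts for the other complexes stand against the same background and are over few genes. Ndufa7 had the best mean rank of score over the 4 lists, with 27 normalized tags in control cells, 26.2 after FSK, 55.5 after TNFα and 31.4 after FSK/TNFα. Its control peak was 48th by score of 5188. Ndufs1, an iron-sulfur core subunit, held 8.47, 30.4, 57.8 and 27.4 tags in the same order. Its TNFα value was 6.82 times its control value, the highest such ratio of the 30 genes with both peaks. Ndufb9, an accessory subunit, held 11.1, 17.6, 39.3 and 20.4 tags. In all 3 genes the TNFα peak was the tallest, and only Ndufa7 had a control peak as tall as its FSK peak.

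In 2 other accessory subunits another peak was the tallest. Ndufb5 held 24.9 tags in control cells, 16.4 after FSK, 21.9 after TNFα and 14.8 after FSK/TNFα, so its control peak was the tallest. Ndufa6 held 10.1, 17.6, 29.5 and 35.5 tags, highest with both agents. The TNFα peak was again the tallest at Ndufa11, with 18.5, 18.3, 35.1 and 13.5 tags, and at Ndufc1, with 9.53, 26.2, 33.2 and 19.8. Among the 8 complex I assembly factors, 4 had CRTC2 in control cells, 4 after FSK, 7 after TNFα and 5 after FSK/TNFα. These are 50%, 50%, 87.5% and 62.5%. Ndufaf7, a methyltransferase that acts on a complex I subunit, held 10.6, 28.6, 32.9 and 29.2 tags. Ndufaf3 had no control peak and held 27.4 tags with FSK, 50.2 with TNFα and 40.9 with FSK/TNFα.

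Complex II, the succinate dehydrogenase, links the chain to the TCA cycle. Sdha, its flavoprotein, held 16.4 CRTC2 tags in control cells, 17.6 after FSK, 46.5 after TNFα and 25.2 after FSK/TNFα. Sdhd, a membrane anchor, held 14.8, 12.2 and 25.3 tags and had no peak with FSK/TNFα, and the FSK peak lay 986 bp upstream of the start site, apart from the other peaks at 135 and 147 bp upstream. Sdhc, the other anchor, had peaks with FSK (11 tags) and TNFα (24.2 tags) only. Sdhb, the iron-sulfur subunit, had none in the promoter window. Its peak with FSK/TNFα, of 8.49 tags, was centered 233 bp downstream of the start site, just past the 100-bp limit.

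Of 8 complex III genes, 5 had CRTC2 in control cells, 7 after FSK, 7 after TNFα and 5 after FSK/TNFα. These are 62.5%, 87.5%, 87.5% and 62.5%. Uqcr11, a small subunit, held 13.8, 26.2, 20 and 18.9 tags and had more tags after FSK than after TNFα. Uqcrfs1, the Rieske iron-sulfur protein, held 12.7, 15.8, 24.2 and 12.9 tags. Uqcrc1, a core protein, held 17 tags with FSK and had no peak in the other lists.

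Complex IV, the cytochrome c oxidase, differed from the rest by its restricted isoforms. Of 18 subunit genes, 3 had CRTC2 in control cells, 5 after FSK, 11 after TNFα and 9 after FSK/TNFα. These are 16.7%, 27.8%, 61.1% and 50%. Of all genes, acetylated or not, 11.8%, 27.4%, 39.9% and 29.1% had CRTC2. The widely expressed forms Cox4i1, Cox6a1, Cox6b1, Cox7b and Cox8a were each acetylated in the 4 lists and had CRTC2 in at least 2. Their restricted relatives Cox4i2, Cox6a2, Cox6b2, Cox7b2, Cox8b and Cox8c had neither mark in any list. Ndufa4l2, the hypoxia-induced relative of Ndufa4, was also without either, while Ndufa4 held CRTC2 in 3 lists. These 7 genes were the only respiratory chain genes without an acetylated promoter in any list, against 46.7% of all genes. The exception among the isoform pairs was Cox7a1, the heart and muscle form. Its region held 22.9 H3AcK27 tags per kb in control cells, 33.4 with FSK and 18.9 with TNFα, against 73.7, 70.2 and 90.7 for Cox7a2, and none was called with FSK/TNFα. Cox7a1 also held CRTC2 with FSK (10.3 tags) and TNFα (6.42 tags), ranked 8915th of 11749 and 18730th of 19527 by score.

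The 9 complex IV assembly factors had no CRTC2 promoter peak in control cells, but 5 had one with FSK, 9 with TNFα and 6 with FSK/TNFα. These are 0%, 55.6%, 100% and 66.7%, and all 9 genes were acetylated. Among all genes acetylated in control cells the shares were 22.7%, 52.7%, 76.3% and 55.7%. The 0 of 9 carries a Wilson interval up to 29.9%, which includes the 22.7%. Cox17, a copper chaperone, held 20.1, 20 and 11 tags in the treated lists. Cox10 and Cox15, which make heme A, held 15.2, 21.5 and 16.7 tags and 19.5, 26.4 and 11.6 tags. Cox11 (25.3 tags) and Cox14 (19.6 tags) had a peak with TNFα alone, as did Atp5a1, the ATP synthase α subunit (24.6 tags).

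Among the 17 ATP synthase genes, 3 had CRTC2 in control cells, 12 after FSK, 15 after TNFα and 12 after FSK/TNFα. These are 17.6%, 70.6%, 88.2% and 70.6%, against 22.7%, 52.7%, 76.3% and 55.7% of all genes acetylated in control cells. Atp5d, which encodes the δ subunit of the F1 stalk, stood apart. It had no control peak and held 62.7 tags with FSK, 23.8 with TNFα and 88.7 with FSK/TNFα. The FSK peak was 91st by score of 11749 and the FSK/TNFα peak 37th of 14171, while the TNFα peak was 3625th of 19527. These were the tallest respiratory chain peaks with FSK and with FSK/TNFα. The Atp5d value with FSK/TNFα was 3.73 times that with TNFα, and the next ratio among 59 genes was 1.79, at Cox8a. At Atp5d the FSK/TNFα peak was centered 16 bp upstream and the TNFα peak 70 bp downstream of a start site. Atp5b, the catalytic β subunit, held 13.2, 29.2, 22.7 and 19.8 tags from control to FSK/TNFα and had its tallest peak with FSK. The 3 genes for the membrane ring subunit differed: Atp5g2 had CRTC2 in control cells (18.5 tags) and with TNFα (38.2 tags) only, while Atp5g1 and Atp5g3 had it in the 3 treated lists and not in control cells.

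The sequence upstream of Atp5d is shown with that of Ndufb2, because both hold a full CRE (TGACGTCA) inside a CRTC2 peak and differed in the lists that held the peak. Each is the 200 bases before the first start site, from the RefSeq GRCm38 genome on the strand of the gene. Atp5d lies at chr10:80141257-80141456 (+ strand) and Ndufb2 at chr6:39592374-39592573 (+ strand), both outside annotated exons. Capitals mark TGACG, the core letters of the CRE, and its reverse complement.

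Atp5d: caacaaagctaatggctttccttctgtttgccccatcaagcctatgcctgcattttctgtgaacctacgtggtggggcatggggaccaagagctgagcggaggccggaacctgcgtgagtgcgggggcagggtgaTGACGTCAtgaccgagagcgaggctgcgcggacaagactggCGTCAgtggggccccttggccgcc
Ndufb2: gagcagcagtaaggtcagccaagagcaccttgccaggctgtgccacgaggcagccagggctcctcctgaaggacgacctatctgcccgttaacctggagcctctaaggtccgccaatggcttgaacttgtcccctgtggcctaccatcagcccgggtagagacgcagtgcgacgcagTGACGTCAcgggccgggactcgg

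In Atp5d the full CRE lay 65 to 58 bp upstream of the start site, inside the FSK and FSK/TNFα peaks and outside the TNFα peak. A further core match lay 24 to 20 bp upstream. In Ndufb2 the full CRE lay 23 to 16 bp upstream. Ndufb2, an accessory subunit of complex I, held 12.2 CRTC2 tags in control cells, 20 with TNFα and 20.4 with FSK/TNFα, and had no peak with FSK. The FSK/TNFα peak covered the full CRE at both genes. The FSK peak covered it at Atp5d alone, and the control and TNFα peaks covered it at Ndufb2 alone.

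The other 3 respiratory chain promoters with a full CRE between 250 bp upstream and 50 bp downstream of the first start site were those of Ndufa10, Ndufa11 and Uqcrfs1. Their sites are printed with 10 bases on either side, on the strand of the gene, with the CRE in capitals.

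Ndufa10: cactcagtggTGACGTCAtggcagcgcg
Ndufa11: ttacctttccTGACGTCAcgggcgtctc
Uqcrfs1: ggcgtcgcgcTGACGTCAcaaaccctgc

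The Ndufa10 site (chr1:92473808-92473835, - strand) lay in its first exon and was covered by the FSK/TNFα peak alone. The Uqcrfs1 site (chr13:30545328-30545355, - strand) also lay in its own exon and was covered with FSK/TNFα alone, although Uqcrfs1 had promoter peaks in the 4 lists. The Ndufa11 site (chr17:56717594-56717621, + strand) lay in an exon of the neighboring gene Vmac and was covered in none, although Ndufa11 too had CRTC2 in each list.

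Over all 102 genes, the 300-bp window from 250 bp upstream to 50 bp downstream of the first start site held TGACG on either strand in 38 promoters (37.3%), against 23.2% of all protein-coding promoters and 31.9% of acetylated ones. The full CRE, which contains these letters, was present in 5 (4.9%), against 2.46%. In the longer window from 1000 bp upstream to 100 bp downstream, TGACG was present in 52.9% against 42.6%, but among acetylated promoters in 53.7% against 53.9%. TGACG stood in 26 of 53 respiratory chain promoters with a CRTC2 peak after FSK (49.1%) and in 11 of 42 acetylated ones without (26.2%). For all genes these shares were 37.5% and 25.6%. The 5 letters are short, and a match is not evidence of binding.

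Sites for NRF1 (GCGCA and GCGC with any base between) were present in 17 respiratory chain promoters, or 16.7%, against 6.09% of all promoters and 10.4% of acetylated ones. Those of ETS factors such as GABPA (CCGGAAGT) were present in 9.8% against 4.84% of all and 8.36% of acetylated promoters, and those of YY1 (AAGATGGCG) in 4.9% against 1.71% and 3.06%. ERRα letters (TCAAGGTCA) were found in Atp5g3 and Sdhd, or 1.96% against 0.458%. AP1 letters (TGACTCA or TGAGTCA) were found in Atp5c1 and Uqcrh, or 1.96% against 4.47%. No respiratory chain promoter held either NF-κB sequence searched, against 0.16% of all promoters. Mitochondrial ribosomal protein promoters had NRF1 letters at 15.4%, and cytosolic ones at 5.19%. Median GC content was 56.2% in respiratory chain promoters, 55.3% in all and 59.7% in acetylated ones.

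**Figure D3:**
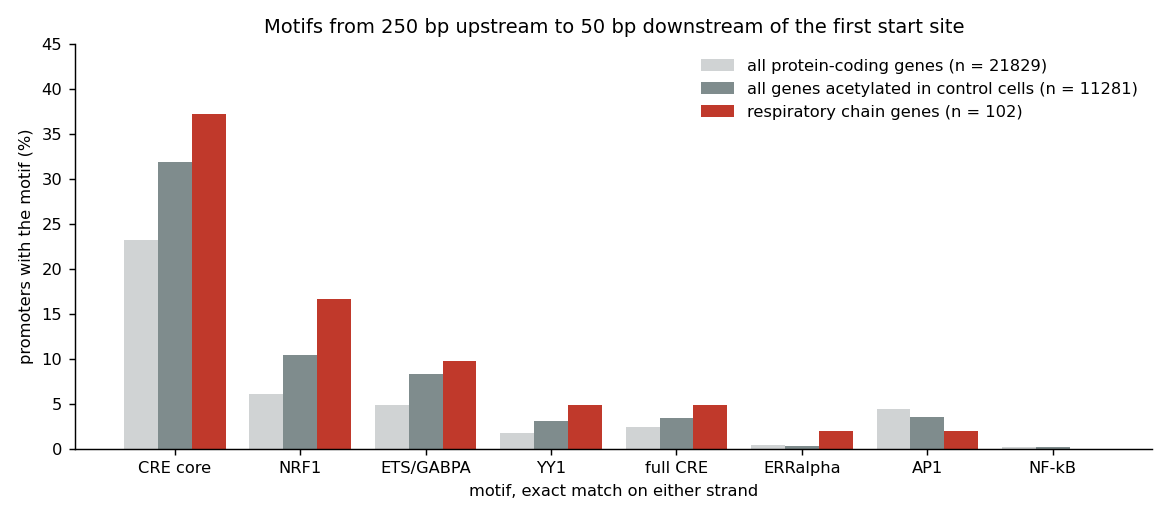
Bars give the percent of promoters that hold each motif, matched exactly on either strand in a 300-bp window, for all genes (light grey), genes acetylated in control cells (dark grey) and respiratory chain genes (red). Red exceeds light grey for NRF1 (16.7% against 6.09%) and the CRE core TGACG (37.3% against 23.2%), and is lower for AP1 (1.96% against 4.47%).

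NRF1 letters were also counted in the 200 bp around the center of each CRTC2 promoter peak. In control cells they were present in 8 of 31 respiratory chain peaks (25.8%), against 8.1% of all promoter peaks in that list. With FSK the shares were 17% and 7.07%, with TNFα 14.5% and 7.8%, and with FSK/TNFα 12.7% and 7.7%. In windows 2 kb away they were 0% for the respiratory chain in each list. For all promoter peaks they were also rare there, at 0.0775%, 0.117%, 0.0803% and 0.0943% from control to FSK/TNFα. These counts do not compare genes with and without a CRTC2 peak. In the 300-bp promoter window, Ndufb4, without CRTC2 in any list, and Cox6a1, without a control peak, each held 2 NRF1 sites. Sdha, with CRTC2 in each list, held 3. The core TGACG was in 10 of the 31 control peaks and in 21 of 53 FSK peaks (39.6%), against 24.9% and 30.2% of all promoter peaks. With TNFα it was in 21.7% against 25.6%, and with FSK/TNFα in 25.4% against 30.5%, so the respiratory chain share was the lower in those lists. Examples of NRF1 sites inside the control CRTC2 peaks are shown with the site in capitals and 10 bases on either side, on the strand of the gene. Sdha held 3 copies within 100 bp.

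Sdha upstream copy 1: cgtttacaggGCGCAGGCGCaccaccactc
Sdha upstream copy 2: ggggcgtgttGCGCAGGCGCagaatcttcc
Sdha downstream copy: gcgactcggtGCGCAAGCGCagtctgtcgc
Ndufa11: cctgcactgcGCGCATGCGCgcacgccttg
Ndufa8: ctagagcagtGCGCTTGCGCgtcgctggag

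The Sdha copies (chr13:74350319-74350348, chr13:74350276-74350305 and chr13:74350231-74350260, - strand) were centered 53.5 and 10.5 bp upstream and 34.5 bp downstream of its start site. The first lay in an exon of the divergent gene Ccdc127 and was covered by CRTC2 peaks in the 4 lists. The other 2, of which the last lay in an Sdha exon, were covered in control cells, with TNFα and with FSK/TNFα. The Ndufa11 site (chr17:56717692-56717721, + strand) was centered 60.5 bp upstream, outside exons, and the Ndufa8 site (chr2:36049349-36049378, - strand) 42.5 bp downstream, in its exon.

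The 13 genes without CRTC2 were in part a matter of the 100-bp limit. Besides the 7 unacetylated genes they were Atp5f1, Ndufa13, Ndufb7, Sdhb, Ndufa3 and Ndufb4, all acetylated in each list. Atp5f1, the b subunit of the ATP synthase stalk, had CRTC2 peaks of 34.1 tags with FSK, 33.2 with TNFα and 46.8 with FSK/TNFα, centered 836, 878 and 792 bp downstream. These were taller than most promoter peaks of the other genes. Ndufa13 had peaks 936 bp downstream with FSK (21.3 tags) and 958 bp downstream with TNFα (23.8 tags), and Ndufb7 had them 365 bp (9.13 tags) and 362 bp (15.1 tags) downstream. Ndufa3 and Ndufb4 had no CRTC2 peak closer than 12553 and 74272 bp.

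FSK against control addresses the response of CRTC2 to cAMP. CRTC2 was called with FSK and not in control cells at 33 respiratory chain genes (32.4%, against 17.7% of all genes), and in control cells and not with FSK at 11 (10.8%, against 2.13%). Here and in the comparisons below, all genes include unacetylated promoters, where CRTC2 was rarely called. Of 8715 genes called with TNFα, 8612 were acetylated in control cells. Among acetylated promoters the shares with a peak lay closer together, as given above. Gains and losses among these alone were not counted. In the 20 genes with both peaks, FSK tags were higher in 14 and at least 2-fold higher in 5 (25%, against 31.7% of all genes with both peaks). The median ratio was 1.22 for the respiratory chain and 1.6 for all genes, or 0.29 and 0.68 on the log2 scale. The 5 genes were Ndufs1 (3.59-fold), Uqcrb (2.88-fold), Ndufc1 (2.75-fold), Ndufaf7 (2.7-fold) and Atp5b (2.21-fold). Ndufaf5 (0.596 of control), Ndufb5 (0.659) and Ndufb3 (0.662) had the lowest ratios. The ratio was no higher where the 200 bp around the center of the FSK peak held TGACG. The median log2 was 0.26 in 7 such genes and 0.32 in the 13 others. For all genes these medians were 0.75 with TGACG and 0.66 without.

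TNFα against control gave the most added genes. CRTC2 was called with TNFα and not in control cells at 53 genes (52%, against 28.5% of all genes), and the reverse held for Cox7a2 alone (0.98%, against 0.394%). Among acetylated promoters the shares with a peak were 87.4% and 76.3% with TNFα, and 32.6% and 22.7% in control cells. Tags were higher with TNFα in 26 of the 30 genes with both peaks and at least 2-fold higher in 15 (50%, against 58%). The median ratio was 1.98, against 2.22 for all genes. After Ndufs1, the ratios were highest at Ndufaf8 (4.59-fold), Uqcrb (3.98-fold) and Ndufa4 (3.8-fold). The TNFα library held 26472345 tags and the control library 18885214. The TNFα list was the longest of the 4, and with each list cut to its best 5188 peaks the TNFα count was 54 genes (52.9%), against 21.7% of all genes. With that cut the count was 31 in control cells (30.4%, against 11.8%). It was 36 with FSK (35.3%, against 16.9%) and 36 with FSK/TNFα (35.3%, against 15.9%).

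FSK/TNFα against control gave a peak only with treatment at 40 genes (39.2%, against 19.6% of all genes) and only in control cells at 8 (7.84%, against 2.3%). Of 23 genes with both peaks, 6 were at least 2-fold higher (26.1%, against 29.2%), led by Ndufa6 (3.51-fold) and Ndufs1 (3.23-fold). The median ratio was 1.55, against 1.53.

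Adding TNFα to FSK brought 22 respiratory chain genes into the CRTC2 list (21.6%, against 7.44% of all genes) and left out 12 (11.8%, against 5.72%). The FSK/TNFα library held 31807394 tags and the FSK library 16438040. The median ratio over the 41 genes with both peaks was 0.962, against 0.957. Adding FSK to TNFα brought in 4 genes (3.92%, against 2.06%) and left out 24 (23.5%, against 12.8%). Tags were lower with both agents than with TNFα in 48 of 59 genes, and at least 2-fold lower in 10 (16.9%, against 20%). The median ratio was 0.714, against 0.695, with Ndufaf2 (0.258) and Atp5h (0.328) lowest. The 2 lists also used different inputs. Comparisons with the control list share that library, as those with FSK/TNFα share theirs.

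**Figure D4:**
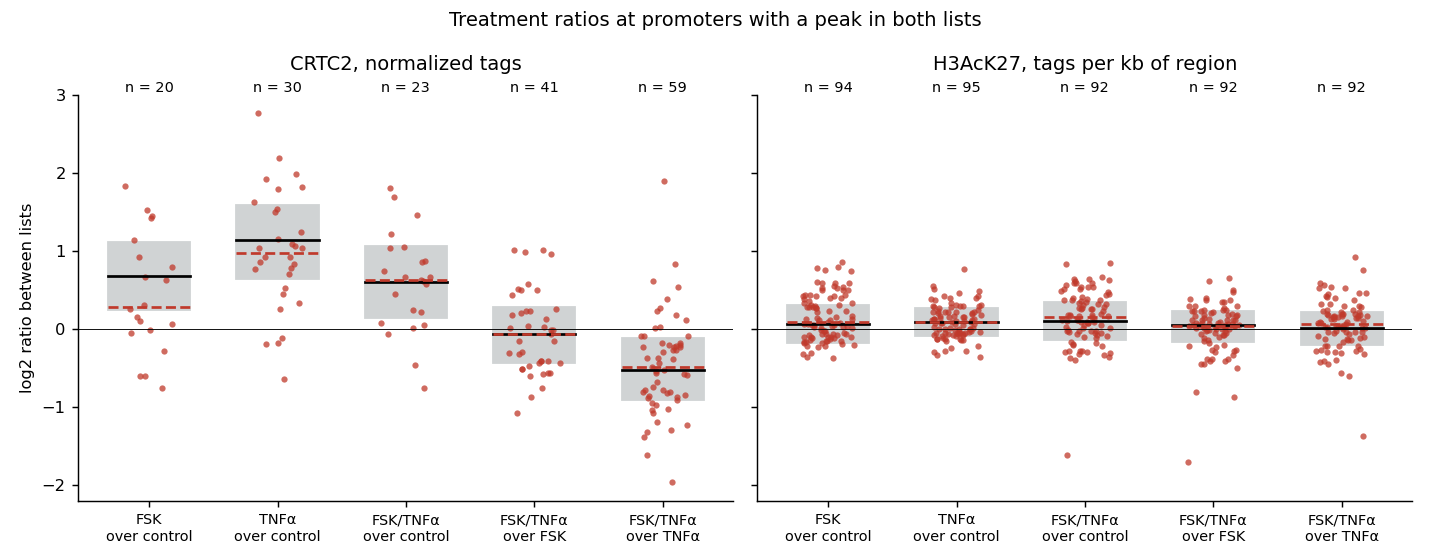
Points are respiratory chain genes with a peak in both lists of a comparison, with their number above. The y axis is the log2 ratio of normalized tags (CRTC2, left) or tags per kb (H3AcK27, right), dashed red lines are medians of the points, and grey boxes and black lines are the quartiles and median of all protein-coding genes. The red and black lines are farthest apart for CRTC2 with FSK over control (0.29 and 0.68), and the lowest H3AcK27 point in each comparison with FSK/TNFα is Ndufa13.

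Where they were called, CRTC2 peaks at respiratory chain promoters had normalized tags close to those of all promoter peaks. Their median was 12.7 normalized tags in control cells, 16.4 after FSK, 20 after TNFα and 15.1 after FSK/TNFα, against 12.2, 15.8, 18.9 and 14.5 for all promoter peaks. Median fold over input was lower than for all promoter peaks in control cells (7.48 against 10.4), with TNFα (13.6 against 18.4) and with FSK/TNFα (7.48 against 9.4), and higher with FSK (10.2 against 9.6). In control cells 14 of the 31 peaks reached 8-fold over input, against 1685 of 2580. Their centers lay close to a start site, within 50 bp for 54.8% of control peaks against 39.1% of all. With FSK these shares were 37.7% and 37.6%, with TNFα 41% and 38.6%, and with FSK/TNFα 54% and 41.7%.

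Many respiratory chain genes shared a promoter with a gene on the other strand, whose start site lay within 1000 bp upstream. There were 33 such genes (32.4%), against 9.86% of all genes and 17.6% of acetylated ones. With FSK, CRTC2 was called at 26 of these 33 genes (78.8%) and at 27 of the 62 other acetylated respiratory chain genes (43.5%). In control cells the shares were 42.4% and 27.4%, with TNFα 97% and 82.3%, and with FSK/TNFα 63.6% and 67.7%. All acetylated genes had 29.7% and 21.2% in control cells, 67.8% and 49.4% with FSK, 90.3% and 73.4% with TNFα, and 67.4% and 53.2% with FSK/TNFα. With FSK/TNFα the 2 respiratory chain shares were close, at 21 of 33 and 42 of 62 genes. Ndufa7 is paired in this way with Rps28, Ndufaf7 with Cebpz, Sdhd with Timm8b and Atp5d with Cbarp. Which gene of a pair a peak belongs to cannot be told apart here.

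**Figure D5:**
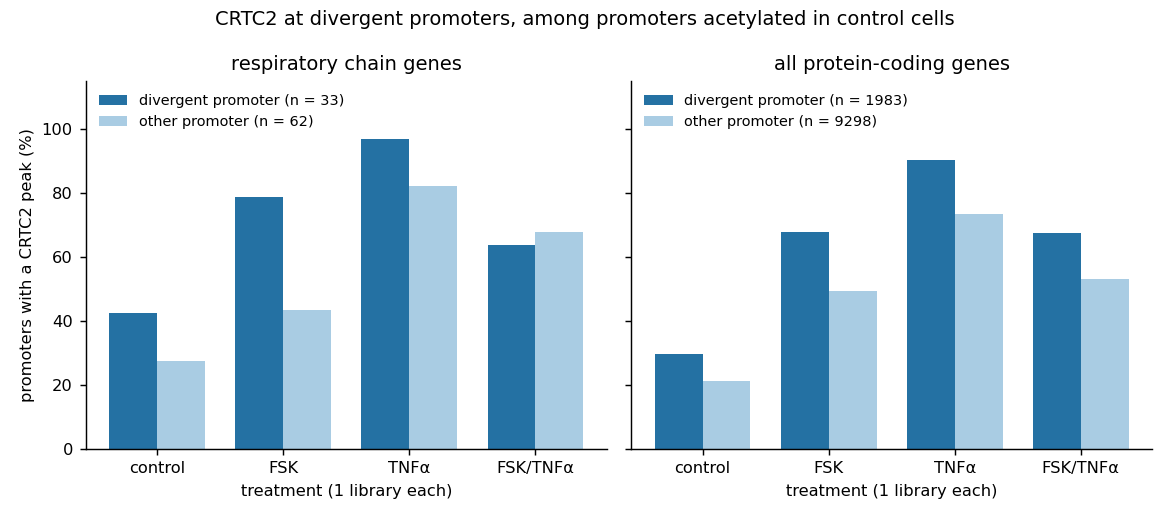
Bars give the percent of promoters acetylated in control cells that had a CRTC2 peak, for promoters with a start site on the other strand within 1000 bp upstream (dark) and others (light), with 1 library per pair of bars. Among respiratory chain genes (left) the dark bar is the taller in control cells, with FSK (78.8% against 43.5%) and with TNFα. With FSK/TNFα the bars are close (63.6% against 67.7%).

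NF-κB p65 was rarely called at these promoters, as at the promoters of all genes. The lists held 1 respiratory chain gene in control cells (0.98%, against 0.0916% of all genes) and 1 with FSK (0.98%, against 0.586%). They held none with TNFα (against 0.628%) and none with FSK/TNFα (against 1.01%). The 0 of 102 carries a Wilson interval up to 3.63%, which includes the share of all genes. The control peak was at Ndufa6, with 7.17 normalized tags at chr15:82354051-82354215, centered 121 bp downstream of a start site. The FSK peak was at Atp5l, the g subunit of ATP synthase, with 16 tags at chr9:44921026-44921188, centered 365 bp upstream. Both p65 peaks had the lowest score of their lists, 12 in control cells and 7 with FSK. CRTC2 peaks at Atp5l were centered 611, 643 and 669 bp upstream in the 3 treated lists and held 11.6, 8.69 and 8.17 tags.

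H3AcK27 marked nearly all respiratory chain promoters with or without treatment. Regions were called at 95 genes in control cells (93.1%, against 51.7% of all genes), 94 with FSK (92.2%, against 47%), 95 with TNFα (93.1%, against 51.4%) and 92 with FSK/TNFα (90.2%, against 49.1%). In all, 92 genes were marked in each list, against 45.4% of all genes. The 3 that left a list were Ndufaf6 (not called with FSK or FSK/TNFα), Ndufa5 and Cox7a1 (both not called with FSK/TNFα). Density ran from 22.9 to 162 tags per kb in control cells, with a median of 67.1 against 62.3 for all promoter regions. The regions were narrower, with a median width of 2155 bp against 2603 bp.

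Density differed little between treatments. The median ratio to control was 1.07 with FSK, 1.06 with TNFα and 1.12 with FSK/TNFα, against 1.05, 1.07 and 1.08 for all genes. No respiratory chain gene was 2-fold higher than control, against 1.03%, 0.327% and 1.17% of all genes. The highest ratios with FSK were at Ndufaf4 (1.82), Atp5d (1.75) and Cox17 (1.73), and the lowest at Ndufa8 (0.804), Atp5g2 (0.787) and Cox14 (0.773). With TNFα, Cox6a1 (1.47) and Ndufaf6 (1.43) were high, and Ndufa1 (0.78), Ndufa8 (0.799) and Cox5a (0.818) lowest. With FSK/TNFα, Uqcrq (1.8), Atp5d (1.78) and Ndufb4 (1.59) were highest, and Cox7a2l (0.76) and Ndufa8 (0.771) were low. The regions were called separately in each list, so a ratio of densities also reflects their width. At Ndufa8 the region held 98.2 tags over 1143 bp in control cells and 141.1 over 2129 bp with FSK/TNFα. At Ndufb4 it held 125.4 tags over 2469 bp and 120.1 over 1489 bp. In these 2 genes the density and the tags of the whole region moved in opposite directions.

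The single gene at least 2-fold lower was Ndufa13 with FSK/TNFα (0.329, against 0.989% of all genes that low). That value compares different regions. A region of 3885 bp with 228.3 tags covered its start site in control cells, with similar regions after FSK and TNFα. With FSK/TNFα a region of 125.2 tags began 280 bp downstream of the start site, outside the promoter window, and another of 15.5 tags began 986 bp upstream. For Atp5d the regions also differed in extent. It spanned 3264 bp in control cells and 3404 bp with TNFα, and 31336 bp with FSK and 31017 bp with FSK/TNFα, so its density there averages a wider stretch. The region held 234.4 tags in control cells, 3930.7 after FSK, 229.6 after TNFα and 3973.3 after FSK/TNFα. The lists in which this region was long were those in which the Atp5d CRTC2 peak was tall.

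Other genes of the pathway, outside the symbol rule, were also compared with the 11.8%, 27.4%, 39.9% and 29.1% of all genes with CRTC2 from control to FSK/TNFα. The genes below were all acetylated in control cells. Among all genes acetylated there, CRTC2 stood at 22.7%, 52.7%, 76.3% and 55.7%. Of 27 partner genes (cytochrome c, cytochrome c1 and assembly factors), 6 had a promoter peak in control cells, 18 after FSK, 22 after TNFα and 15 after FSK/TNFα, or 22.2%, 66.7%, 81.5% and 55.6%. Cycs, cytochrome c, held 17.5, 20.7, 27.2 and 17.6 tags, and Cyc1, the cytochrome of complex III, held 12.2, 18.9 and 25.7 tags and had no peak with FSK/TNFα. Acad9, a complex I assembly factor, held its tallest peak with FSK (32.2 tags). Of 14 TCA cycle enzymes, 2 had CRTC2 in control cells, 10 after FSK, 12 after TNFα and 11 after FSK/TNFα, or 14.3%, 71.4%, 85.7% and 78.6%. The TCA share was below that of the 102 respiratory chain genes in control cells and above it in the treated lists. Against the respiratory chain genes acetylated in control cells it was slightly lower with TNFα (85.7% and 87.4%). Mdh2, the mitochondrial malate dehydrogenase, held 24.9, 24.9, 46.8 and 32.1 tags. A p65 promoter peak was called at 1 partner gene, Nubpl, an iron-sulfur assembly factor of complex I, with FSK/TNFα, and at no TCA enzyme.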

How the data were processed

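ChIP-seq peak lists of 3T3-L1 cells were used for CRTC2, p65 and H3AcK27 under 4 treatments, grouped by the sample labels, with 1 library each. The 2 input libraries had no list of their own. The respiratory chain genes and the gene lists were chosen with earlier results of these data known.

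The authors aligned reads (STAR and HOMER are named in their processing notes, with the build mm10) and called peaks with HOMER, factor style for CRTC2 and p65 and histone style for H3AcK27. Peaks passed 4-fold over input at a Poisson p of 0.0001. Deposited signal values are tags scaled to 10000000 per library, the deposited score counts at most 1 tag per position in factor lists, and the deposited ratio (fold) is over input. A weaker peak is not listed, so a shallow library can miss it.

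Genes and start sites of protein-coding transcripts came from GENCODE mouse release 21. The 2 gene IDs of Atp5o were joined. A peak counted at an overlap of 1 bp or more, and where several did, the one with most tags gave the value. H3AcK27 was compared as tags per kb of region. Motifs were exact matches to the RefSeq GRCm38 genome. Genes were named by rule: the 12 ranking highest over the CRTC2 lists, those with p65, those without H3AcK27, complex II, isoform pairs, the 3 best with CRTC2 in 1 list alone and the 3 highest and 3 lowest H3AcK27 ratios. Others, such as Ndufaf3, Ndufa4, Atp5d for CRTC2 and genes cited for a ratio, a site or a nearby peak, were chosen after their values were seen. Alternatives were the promoter extent, midpoint rule, 8-fold over input, equal lists, 1 start site and acetylated promoters. The scripts were tested on simulated data. They ran under Python 3.11.15, with samtools 1.23.1 through pysam 0.24.0 for sequence, numpy 2.4.6 and scipy 1.17.1 for values, and matplotlib 3.10.9 for figures. One gene is counted in the totals but its values are not reported here.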

Additional observations from a re-analysis of the deposited data

How the results depend on the processing

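Differences between the share of respiratory chain genes and that of all genes, in percentage points, kept their direction in the 24 alternatives for CRTC2 (3.13 to 40.3) and the 23 for H3AcK27 (2.49 to 47). Among promoters acetylated in control cells, CRTC2 differences were 9.91 in control cells (18.6 among all promoters), 3.13 with FSK (24.5), 11 with TNFα (41.4) and 10.6 with FSK/TNFα (32.6). H3AcK27 differences there were 8.92 with FSK, 2.49 with TNFα and 3.64 with FSK/TNFα, and those of p65 were -1.12 with TNFα and -1.83 with FSK/TNFα. At 8-fold over input, CRTC2 differences were 5.91 in control cells and 11.6 with FSK/TNFα, and H3AcK27 differences 16.8 with FSK and 20 with FSK/TNFα. With lists of equal size, CRTC2 gave 31.3 with TNFα and 19.4 with FSK/TNFα. With region midpoints in the promoter, H3AcK27 gave 27.6, 24.2, 27.9 and 22.8 from control to FSK/TNFα. With 1 start site a gene, the p65 peak at Ndufa6 in control cells was no longer counted, and the difference turned from 0.889 to -0.0458. The 16 alternative medians of normalized tags equaled the main ones except that of H3AcK27 with FSK/TNFα in a shorter promoter, 168 (166), and the longer motif window kept the CRE difference at 10.3 (14 in the shorter one). The cause of these shifts was not tested. Each treatment had 1 library, so no value has a replicate check, and the 9832884 tags of the H3AcK27 library with FSK limit weak regions. No paired analysis was possible because each group had 1 library and the labels carry no replicate numbers.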

Other observations

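The regulators of mitochondrial genes, a list of 15, gave CRTC2 promoter peaks at 2 in control cells, 4 after FSK, 11 after TNFα and 5 after FSK/TNFα. These shares were 13.3%, 26.7%, 73.3% and 33.3%, against 11.8%, 27.4%, 39.9% and 29.1% of all genes. Of the 15 regulators, 13 were acetylated in control cells. Among all genes acetylated there, CRTC2 stood at 22.7%, 52.7%, 76.3% and 55.7%. The 2 unacetylated regulators had no CRTC2, so the counts above all fall among the 13. With FSK and FSK/TNFα, 4 and 5 of 13 lay below the acetylated shares. With TNFα, 11 of 13 lay above. Nrf1, which encodes the factor of the NRF1 sites, held 10.6 normalized tags in control cells, 63.8 with TNFα and 18.9 with FSK/TNFα and had no CRTC2 peak with FSK. It also had a p65 promoter peak with FSK (16 tags). Ppargc1a, the gene of PGC-1α, held a CRTC2 promoter peak with FSK alone (11 tags). Polrmt, the mitochondrial RNA polymerase, held one with TNFα alone (34.4 tags). Tfam, the mitochondrial transcription factor, had peaks with TNFα (15.5 tags) and FSK/TNFα (15.1 tags). Esrrb and Esrrg had neither CRTC2 nor H3AcK27 at the promoter in any list, and the other 13 regulators were acetylated in each. All genes named here were picked from the list after their values were seen.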
